A study of Mus musculus with 14 samples.

Results

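Genes of the ribosome, the proteasome, RNA polymerase II and the translation initiation factors were followed through lists of chromatin regions that differed in accessibility between Ezh2-deleted and control blood progenitors of the mouse yolk sac. Members were taken by gene symbol: names beginning with Rpl or Rps and a digit with Rplp0 to Rplp2 and Rpsa, Psma to Psmg and a digit, Polr2 and a letter, or Eif and a digit. Kinases with such names (Rps6k, Eif2ak), Eif2s3y and pseudogenes named -ps were left out. The lists hold 62 such genes of 6691 genes in all, on 76 of 10679 lines, each line pairing a region with a gene. The members are 29 ribosome genes, 12 proteasome genes, 8 RNA polymerase II genes and 13 initiation factor genes. The same name rule takes 204 protein-coding genes from a RefSeq gene table, of which 89, 51, 13 and 51 belong to the machines in that order.

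The assay was ATAC-seq, where a transposase inserts sequencing adapters into accessible DNA, on 500 sorted erythro-myeloid progenitors per sample. These progenitors arise from yolk sac endothelium and give red cells and myeloid cells, and they were taken from C57BL/6 embryos at E10.5. All groups carried Ezh2fl/fl, so that Cre recombinase could delete Ezh2, whose protein is the methyltransferase of the Polycomb complex PRC2. The groups used are 3 Tie2 WT samples (Tie2-Cre+/+, labelled wild type), 5 Tie2 KO samples (Tie2-CreTg/+) and 3 Vav KO samples (Vav-CreTg/+), and 3 Vav WT samples (Vav-Cre+/+) enter no list. Tie2-Cre acts in endothelium and in the blood cells that come from it, and Vav-Cre acts in blood cells. Vav KO was therefore set against a control from the other Cre line, and Cre line and deletion cannot be told apart there. The lists give no value per sample, so depth and replicate spread are unknown, and the error of a region is the authors' adjusted p-value. Whether samples of a group come from separate embryos is not stated, and the p-values may then measure technical spread.

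The ribosome joins a small and a large subunit, built of Rps and Rpl proteins on ribosomal RNA, and translates messenger RNA. Initiation factors load the small subunit on the messenger RNA and find the start codon, RNA polymerase II transcribes the messenger RNA, and the proteasome degrades proteins marked with ubiquitin. Their genes are active in nearly every cell, have open promoters rich in CpG and are not known as typical Polycomb targets. Ribosomal protein genes are of interest in blood because mutations in several of them, RPL5 and RPL11 among them, cause Diamond-Blackfan anaemia, a failure of red cell production.

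The promoters of 9 members are shown first, because the called regions there reach the gene start or come close to it, while most member regions lie farther upstream. For Psmd6 and Psmd12, subunits of the regulatory particle of the proteasome, the 250 bases before the start are given, with the bases inside the called region in capitals. Both regions were more open in Vav KO than in Tie2 WT and less open in Tie2 KO than in Vav KO. All sequences are from RefSeq, build GRCm38.p6, and run 5′ to 3′ on the strand of the gene.
Psmd6, chr14:14120946-14121195, minus strand: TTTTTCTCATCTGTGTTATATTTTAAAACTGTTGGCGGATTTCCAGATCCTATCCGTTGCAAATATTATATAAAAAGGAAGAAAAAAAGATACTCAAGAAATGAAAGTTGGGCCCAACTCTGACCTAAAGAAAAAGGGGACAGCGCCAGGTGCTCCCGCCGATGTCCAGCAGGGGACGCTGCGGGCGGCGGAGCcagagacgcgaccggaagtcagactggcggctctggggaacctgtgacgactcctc
Psmd12, chr11:107479278-107479527, plus strand: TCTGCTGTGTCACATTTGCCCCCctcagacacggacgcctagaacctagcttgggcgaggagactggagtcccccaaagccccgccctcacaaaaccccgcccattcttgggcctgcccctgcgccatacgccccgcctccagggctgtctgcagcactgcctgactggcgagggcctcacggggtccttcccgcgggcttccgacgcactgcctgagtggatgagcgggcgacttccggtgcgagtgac

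The region reached into 194 of the 250 bases at Psmd6 and 23 of them at Psmd12. The RefSeq start of Psmd6 lies 41 bp from the start used in the lists. At both genes the motif CCGGAAG of ETS factors, read on either strand, lay between the region and the start. Rps12 is not shown, although its region ended 92 bp from the start and held 158 of the 250 bases before it. The last 120 bases before the start of Rps12 held none of the motifs searched. For the 7 members whose region covered the gene start, the last 120 bases before the start are given, with capitals marking a match to any of the motifs named below. Of these genes, Rpl11, Rps23, Psmg3, Polr2c, Polr2f and Polr2l were near lower regions and Psmb3 was near a higher one. All 120 bases lie inside the region at Rps23, Psmb3 and Polr2c. Only 47 of them do at Polr2l, 23 at Polr2f, 7 at Rpl11 and 6 at Psmg3. The RefSeq start lies 22 bp from the start used in the lists at Rpl11 and 51 bp at Psmg3.
Rpl11, chr4:136053394-136053513, minus strand: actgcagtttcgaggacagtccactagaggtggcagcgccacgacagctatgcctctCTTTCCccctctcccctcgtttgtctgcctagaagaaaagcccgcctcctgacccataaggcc
Rps23, chr13:90923002-90923121, plus strand: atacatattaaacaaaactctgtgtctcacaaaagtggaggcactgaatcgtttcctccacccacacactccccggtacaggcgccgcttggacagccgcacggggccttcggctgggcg
Psmb3, chr11:97703314-97703433, plus strand: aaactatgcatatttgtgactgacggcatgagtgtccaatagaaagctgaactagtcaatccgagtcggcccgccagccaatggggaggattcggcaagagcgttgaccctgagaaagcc
Psmg3, chr5:139826895-139827014, minus strand: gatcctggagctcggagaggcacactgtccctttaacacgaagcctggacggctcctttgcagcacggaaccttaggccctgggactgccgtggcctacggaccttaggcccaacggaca
Polr2c, chr8:94857330-94857449, plus strand: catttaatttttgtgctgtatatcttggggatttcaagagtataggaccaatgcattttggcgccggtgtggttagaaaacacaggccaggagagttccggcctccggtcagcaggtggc
Polr2f, chr15:79141205-79141324, plus strand: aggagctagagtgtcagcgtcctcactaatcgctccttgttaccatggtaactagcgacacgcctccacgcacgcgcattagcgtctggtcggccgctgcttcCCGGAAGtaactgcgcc
Polr2l, chr7:141475154-141475273, minus strand: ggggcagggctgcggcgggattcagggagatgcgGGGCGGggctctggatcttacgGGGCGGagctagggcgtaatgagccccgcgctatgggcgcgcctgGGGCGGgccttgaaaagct

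Polr2f held an ETS motif inside its region, Polr2l held the SP factor motif GGGCGG at 3 places, the last inside its region, and Rpl11 held the pyrimidine run CTTTCC outside it. The other 4 of these stretches held none of the motifs searched. Over the whole windows of the table, which run from 250 bases before the start to a short way past it, 51 of 62 members had a sequence. CCGGAAG was found in 23 of them (45.1%), against 9.93% of all 27025 genes of the table. The SP motif GGGCGG was found in 35 (68.6% against 38.2%), CGCATGCG of NRF1 in 6 (11.8% against 2.07%) and TCTCGCGA in 8 (15.7% against 1.13%). AAGATGGC of YY1 was found in 3 (5.88% against 3.19%) and TGACNNNGC, the antioxidant response element through which NFE2L1 drives proteasome genes, in 8 (15.7% against 14%). On the strand of the gene, CTTTTC was found in 13 (25.5% against 12.9%) and CTTTCC in 14 (27.5% against 16%). The other motifs were searched on both strands, matches of different motifs may share bases, and a gene with several windows counts once. These are descriptions of the promoters, and the table of all genes includes noncoding genes.

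Setting Tie2 KO against Tie2 WT asks what deletion of Ezh2 from endothelium onward changes. Lower regions had 15 member genes nearby and higher regions had 7, while in the whole lists 656 genes lay near lower and 2833 near higher regions. The members with a lower region were 7.35% of the 204 genes, against 2.51% of all protein-coding RefSeq genes. Those with a higher region were 3.43%, against 11.5% of all protein-coding genes. Lower genes thus made up 68.2% of the members called and 18.9% of all genes called. With an absolute log2 fold change of at least 1, 3 members were lower and 3 higher. The background counts every protein-coding gene, closed ones included, because the set of tested regions is not stated. Median log2 fold changes were 0.82 for higher and -0.81 for lower member regions, beside 1.02 and -0.86 for all regions.

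**Figure D1:**
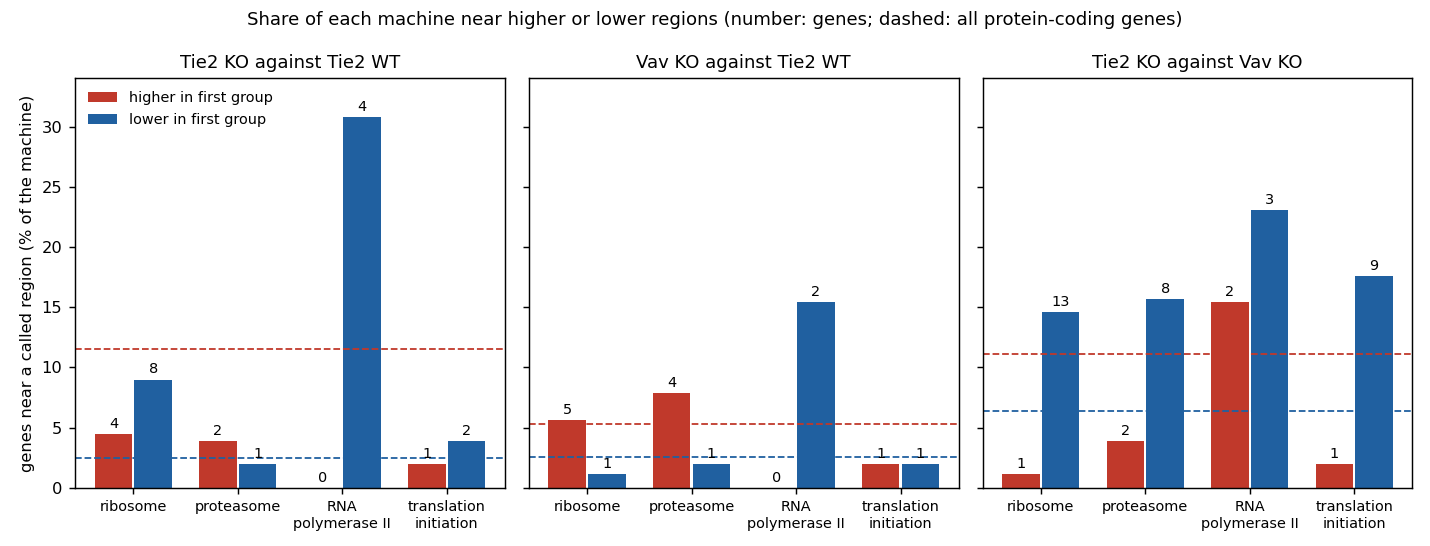
Share of the genes of each machine near a higher (red) or lower (blue) region in each comparison, in percent of the protein-coding genes of the machine, with the number of genes above each bar. Dashed lines give the share of all protein-coding genes called in the same direction. In Tie2 KO against Vav KO the blue bars of all 4 machines, from 14.6% to 23.1%, stand above the blue line at 6.35%.

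Of ribosome genes, 8 lay near lower and 4 near higher regions in Tie2 KO against Tie2 WT. The largest fall in the authors' deposited table was 750 bp upstream of Rpl31, a protein of the large subunit, at a log2 fold change of -1.29 (adjusted p = 1.01e-05). Rps15, of the head of the small subunit, followed at -0.87 (adjusted p = 3.47e-05), Rps18 at -0.84 (adjusted p = 0.00272) and Rpl21 at -0.79 (adjusted p = 6.45e-05), as the authors' deposited table gives them. Rpl3, which lies near the catalytic centre of the large subunit, had its region 295 bp upstream at -0.70, and Rpl14 and Rpl36 were both at -0.69 in the authors' deposited table. The 8 lower ribosome regions had a median of -0.75, and 7 of them changed by less than 1 in size.

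The higher ribosome regions spread more widely. In the authors' deposited table Rpl32l, a gene named as a relative of Rpl32, had the largest rise of all members of this comparison at 2.13 (adjusted p = 3.48e-06). Its region lies inside the neighbouring gene Map7, on chromosome 10 from 20205102 to 20206100 in mm10, and was also paired with a second gene. Rpl38, a protein of the large subunit known for its role in translating Hox messenger RNAs, had a region 3742 bp upstream at 1.54 in the authors' deposited table (adjusted p = 1.69e-05). Rpl23a followed at 0.75, with the lowest adjusted p of all members here (7.97e-08), and Rps12 at 0.63 in the authors' deposited table. The region of Rpl23a covers the start of Rab34, which it was paired with too, and that of Rps12 ends 92 bp from the gene.

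Of RNA polymerase II genes 4 of 13 (30.8%) lay near lower and 0 near higher regions. The authors' deposited table gives log2 fold changes of -1.19 for Polr2j (adjusted p = 9.69e-06), -0.85 for Polr2b (adjusted p = 0.000486), -0.81 for Polr2f (adjusted p = 0.000204) and -0.65 for Polr2g (adjusted p = 1.75e-06). Polr2b encodes the second largest subunit, Polr2j a partner of Polr2c in the assembly of the enzyme, Polr2f a subunit shared with polymerases I and III, and Polr2g a subunit of the stalk. The region of Polr2f, on chromosome 15 from 79141302 to 79142300, was the one member region of this comparison that covered a gene start.

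Proteasome genes numbered 2 higher and 1 lower of 51. In the authors' deposited table Psmd5, a chaperone in the assembly of the regulatory particle, was at 0.82 (adjusted p = 0.000182) and Psmb6, a catalytic subunit of the core particle, at 0.71 (adjusted p = 3.96e-05). The region of Psmd5 was also paired with Cutal and that of Psmb6 with Vmo1. Psmd4, the ubiquitin receptor of the regulatory particle, was at -0.85 in the authors' deposited table (adjusted p = 2.48e-05). Initiation factor genes numbered 1 higher and 2 lower of 51. Eif1a, which binds the small subunit during scanning, was at -1.28 (adjusted p = 1.76e-05) and Eif3k, of the eIF3 scaffold, at -0.63 in the authors' deposited table. The higher one was Eif4a3 at 1.2 in the authors' deposited table, and although named as an initiation factor it is a core part of the exon junction complex.

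**Figure D2:**
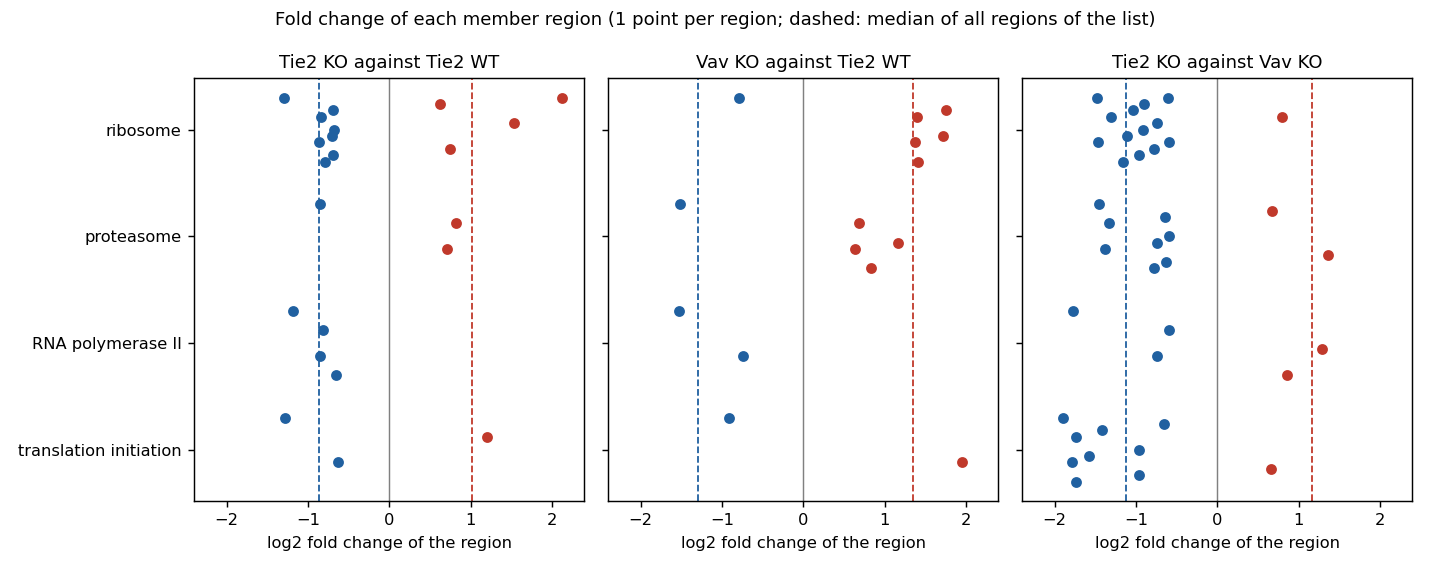
Log2 fold change of every member region as the authors give it, in rows by machine (ribosome, proteasome, RNA polymerase II, translation initiation) and in panels by comparison, with higher regions in red and lower ones in blue. Dashed lines are the medians of all regions of the list. The initiation factor regions lower in Tie2 KO than in Vav KO reach -1.9, and the ribosome regions higher in Vav KO than in Tie2 WT lie between 1.38 and 1.75.

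Setting Vav KO against Tie2 WT gave 10 member genes near higher and 5 near lower regions. These are 4.9% and 2.45% of the 204 genes, and the background over all protein-coding genes was 5.29% and 2.59%. The members' counts are thus near the background in both directions, and lower genes made up 33.3% of the members called and 33.4% of all genes called. Median log2 fold changes were 1.39 and -0.92, beside 1.35 and -1.29 for all regions.

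Single members still differed. Of ribosome genes, 5 lay near higher regions, and their fold changes in the authors' deposited table fill a narrow band, with Rps21 at 1.75, Rpl5 at 1.72, Rpl27 at 1.41, Rps27 at 1.4 and Rpl37 at 1.38. Rpl5 binds Mdm2 together with Rpl11 when ribosome assembly is disturbed. Their adjusted p-values in the authors' deposited table ran from 6.89e-05 (Rpl37) to 0.00702 (Rpl27). The one lower ribosome gene was Rpl35, of the exit tunnel of the large subunit, at -0.79 in the authors' deposited table, in a region also paired with Arpc5l.

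Proteasome genes near higher regions in Vav KO against Tie2 WT were Psmd12, Psmd11 and Psmd6, all of the lid of the regulatory particle, and Psmb6. The authors' deposited table gives 1.17 for Psmd12 (adjusted p = 0.0001), 0.83 for Psmd11 (adjusted p = 2.55e-05), 0.68 for Psmd6 (adjusted p = 0.000548) and 0.64 for Psmb6 (adjusted p = 0.00152). Psme1, a subunit of an activator of the proteasome that interferon induces, was lower at -1.52 in the authors' deposited table (adjusted p = 7.65e-05). Eif1, which guards the choice of the start codon, had the largest rise of the members here, at 1.95 in the authors' deposited table (adjusted p = 0.000548). Eif3b, a core subunit of eIF3, was lower at -0.92 in the authors' deposited table (adjusted p = 0.000141).

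Of RNA polymerase II genes, 2 of 13 lay near lower regions in this comparison and 0 near higher ones. Polr2k, a small subunit shared with polymerases I and III, was at -1.53 in the authors' deposited table (adjusted p = 0.00124), in a region inside Fbxo43 that was paired with Fbxo43 too. Polr2c was at -0.74 in the authors' deposited table (adjusted p = 0.000206), in a region over its start on chromosome 8 from 94856702 to 94857700.

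Differences between the knockouts themselves were read from Tie2 KO against Vav KO, the comparison that holds the most members. Near lower regions, those less open in Tie2 KO, lay 33 members (16.2% of 204, against 6.35% of all protein-coding genes). Near higher regions lay 6 (2.94%, against 11.1%). Lower genes made up 84.6% of the members called and 37.7% of all genes called. With an absolute log2 fold change of at least 1, 16 were lower and 2 higher. By machine the lower genes were 13 of 89 for the ribosome (14.6%), 8 of 51 for the proteasome (15.7%), 3 of 13 for RNA polymerase II (23.1%) and 9 of 51 for initiation (17.6%). The machines thus had similar shares of lower genes, and differences between them were not tested. These Tie2 KO samples are the ones compared with Tie2 WT, and the Vav KO samples are the ones of the previous comparison, so the lists are not independent of each other.

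The initiation factors had the largest falls. The authors' deposited table gives -1.9 for Eif5b, the GTPase that joins the subunits (adjusted p = 0.00012), -1.79 for Eif4a1, the RNA helicase (adjusted p = 0.000483), and -1.74 for Eif4b, which stimulates that helicase (adjusted p = 0.000422). Eif1 was at -1.74 too (adjusted p = 3.93e-05), Eif3c at -1.58 (adjusted p = 1.12e-05) and Eif1a at -1.42 (adjusted p = 0.000122) in the authors' deposited table. Eif3d and Eif3i were both at -0.96 and Eif2s1, the subunit of eIF2 that stress kinases phosphorylate, at -0.66 in the authors' deposited table. The median of the 9 was -1.58, against -1.12 for all lower regions of the list, while the medians of ribosome, proteasome and RNA polymerase II regions were -0.97, -0.76 and -0.74. The higher initiation gene was Eif2a, a separate factor that can deliver the initiator tRNA, at 0.66 in the authors' deposited table (adjusted p = 0.0149).

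The 13 lower ribosome genes were 9 of 54 of the large and 4 of 35 of the small subunit. The authors' deposited table gives -1.48 for Rpl7a, -1.47 for Rpl12, -1.31 for Rpl26 and -1.16 for Rpl32, with adjusted p-values from 0.000105 (Rpl12) to 0.00117 (Rpl7a). Then follow Rpl14 at -1.11, Rpl27a at -1.04, Rpl10a at -0.97, Rps18 at -0.91, Rps16 at -0.90 and Rpl41 at -0.78 in the authors' deposited table. The smallest falls were those over gene starts, Rpl11 at -0.61 and Rps23, of the decoding centre, at -0.60 in the authors' deposited table. The single higher ribosome gene was Rpl19 at 0.8 in the authors' deposited table, 4209 bp upstream and inside Cacnb1.

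The 8 lower proteasome genes were 6 of 21 of the regulatory particle, which recognises and unfolds substrates, 1 of 19 of the core and 1 of 11 of the activators and assembly factors. The authors' deposited table gives -1.46 for Psmd12 (adjusted p = 1.65e-05), -1.33 for Psmd6 (adjusted p = 2.89e-05), -0.74 for Psmc6, one of its ATPases, -0.65 for Psmd11, -0.63 for Psmd4 and -0.60 for Psmd13. Psmb7, a catalytic subunit of the core, was at -1.38 (adjusted p = 2.59e-05) and Psmg3, an assembly chaperone, at -0.78 in the authors' deposited table. Higher were Psmd5 at 1.36 and Psmb3, of the core, at 0.67 in the authors' deposited table. The region of Psmd5 was also paired with Cutal, and that of Psmb3 with the Polycomb gene Pcgf2.

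RNA polymerase II genes split in this comparison. Polr2c was at -1.78 (adjusted p = 0.001), Polr2j at -0.74 and Polr2l, shared with polymerases I and III, at -0.60 in the authors' deposited table. Polr2h, another shared subunit, was at 1.29 (adjusted p = 0.00031) and Polr2b at 0.86 (adjusted p = 0.000366) in the authors' deposited table.

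No member lay near regions of all 3 comparisons. In 2 comparisons lay 14 members, and at 12 of them the regions of both overlapped. The same counts were not made over all genes of the lists, so they are not read as a trait of the members. Because each pair of comparisons shares a group, the values below are set side by side and are not repeats of each other. In the authors' deposited table Psmd12 was at 1.17 for Vav KO against Tie2 WT and -1.46 for Tie2 KO against Vav KO, Psmd6 at 0.68 and -1.33, Psmd11 at 0.83 and -0.65, and Eif1 at 1.95 and -1.74. At these 4 genes Vav KO was the more open group in both comparisons.

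Further members were lower in Tie2 KO in both of its comparisons, at overlapping regions. In the authors' deposited table the values against Tie2 WT and against Vav KO were -1.28 and -1.42 for Eif1a, -0.85 and -0.63 for Psmd4, -0.84 and -0.91 for Rps18, and -0.69 and -1.11 for Rpl14. Psmd5 was higher in Tie2 KO in both, at 0.82 and 1.36 in the authors' deposited table, in regions also paired with Cutal. Psmb6 was higher in both knockouts against Tie2 WT, at 0.71 in Tie2 KO and 0.64 in Vav KO in the authors' deposited table. Polr2j was lower in Tie2 KO in both at regions that do not overlap, and Polr2c was lower over its start in Vav KO against Tie2 WT and lower upstream in Tie2 KO against Vav KO.

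Polr2b, by contrast, changed sides between the comparisons of Tie2 KO. Its region was lower in Tie2 KO than in Tie2 WT (-0.85) and higher in Tie2 KO than in Vav KO (0.86) in the authors' deposited table, over 699 shared bases inside the neighbouring gene Noa1. Since log2 fold changes of one region add along the groups, the third comparison can be computed from the other two. For 10 of the 12 members with overlapping regions the computed value lay between -0.54 and 0.42, inside the smallest fold change in the lists (0.58 in size). Since no member has lines in all 3 comparisons, the third has no call at any of the 12, and this is no check on the computed values. For Psmd6 the computed Tie2 KO against Tie2 WT value was -0.65, and for Polr2b the computed Vav KO against Tie2 WT value was -1.71, where the lists hold no Polr2b line. The regions overlap in part only at some genes, so these computed values are approximate. At Eef1g, a gene outside the members with calls in all 3 comparisons, the called values did not add in this way.

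**Figure D3:**
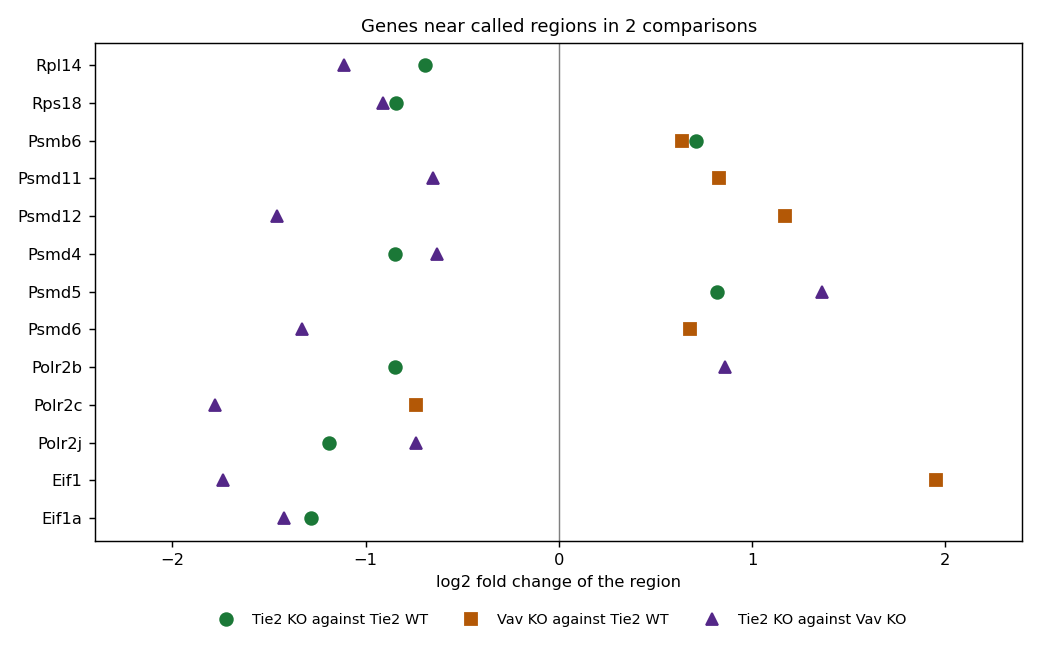
Log2 fold changes of 13 members near called regions in 2 comparisons, with a marker for each comparison and genes ordered by machine. Psmd11, Psmd12, Psmd6 and Eif1 have a value above 0 for Vav KO against Tie2 WT and one below 0 for Tie2 KO against Vav KO. Polr2b has -0.85 and 0.86 on opposite sides of 0.

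Most member regions lay away from the gene start. Of the 76 lines, 7 (9.21%) had a region over the start, against 3705 of all 10679 lines (34.7%). The median distance from the region's near edge to the gene was 2007.5 bp for members and 618 bp for all lines. Within the lower lists the members were not farther away than all lines, with medians of 1512 against 1517 bp in Tie2 KO against Tie2 WT, 604 against 1094.5 bp in Vav KO against Tie2 WT and 1512 against 1989 bp in Tie2 KO against Vav KO. Within the higher lists, in the same order, they were 2839 against 0 bp, 2981 against 1545 bp and 2232 against 226 bp. With an absolute log2 fold change of at least 1, the lower member medians were 1503, 2751 and 2315 bp in that order. The higher ones were then 2458, 2948 and 2232 bp. With regions paired with 1 gene only, the lower member medians were 2190, 604 and 1636 bp. The medians of all lines are given for the full lists only. Whole lists differed in the share over a start too. In Tie2 KO against Tie2 WT, 54.2% of all higher lines covered a start and 17.9% of the lower ones did. There 0 of 7 higher and 1 of 15 lower member regions (6.67%) covered a start. For Vav KO against Tie2 WT these were 0 of 10 and 1 of 5 (20%), beside 16.3% and 16.4% of all lines. For Tie2 KO against Vav KO they were 1 of 6 (16.7%) and 4 of 33 (12.1%), beside 43% and 11.7% of all lines, so the lower members were close to their list.

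**Figure D4:**
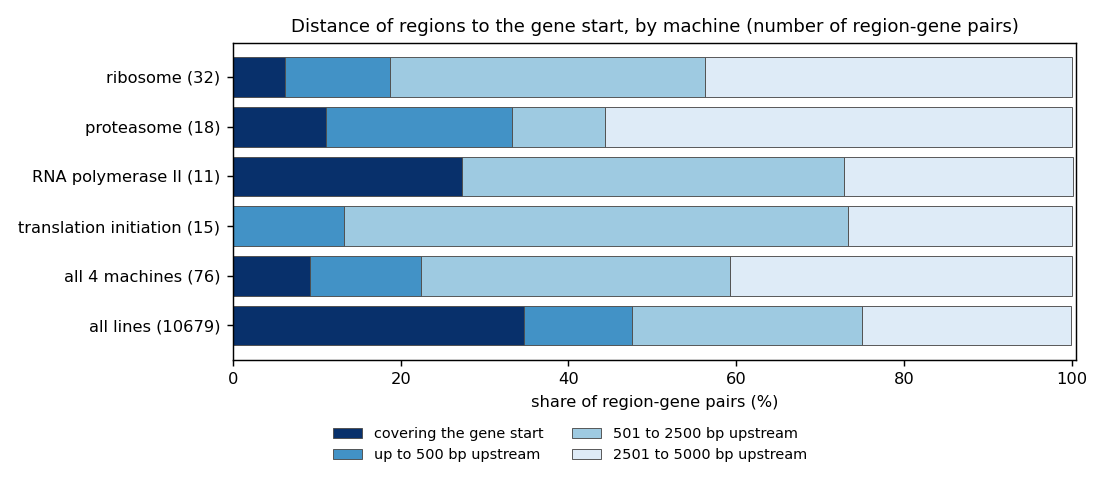
Share of region-gene pairs in 4 distance classes, from regions over the gene start (dark) to those more than 2500 bp upstream (pale), for each machine, all 4 machines and all lines. Regions over the start make up 27.3% of the RNA polymerase II pairs, 0% of the initiation pairs and 34.7% of all lines.

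The machines differed in where their regions lay, in small numbers. RNA polymerase II genes had 3 of 11 regions over a start (27.3%), the proteasome 2 of 18 (11.1%), the ribosome 2 of 32 (6.25%) and the initiation factors 0 of 15. Median distances were 1383 bp for RNA polymerase II, 1503 bp for initiation, 2041.5 bp for the ribosome and 2716 bp for the proteasome. Of proteasome regions off the start, 4 lay within 500 bp upstream, 2 from there to 2500 bp and 10 farther away. Of initiation factor regions 9 of 15 lay more than 500 and at most 2500 bp upstream. No test was made of these differences, since regions of one gene or list are not replicates.

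Member regions over a gene start had small changes. These 7 regions over a start had absolute log2 fold changes of 0.60 to 0.81, with a median of 0.67. The median was 0.88 for the 10 regions within 500 bp upstream, 1.2 for the 28 from there to 2500 bp, and 0.87 for the 31 farther away. Over all lines the medians in the same order were 0.98, 1.01, 1.19 and 1.25. Every member region with an absolute log2 fold change of 1 or more lay off the gene start, the closest being those of Psmd6 at 97 bp and Psmd12 at 227 bp. All 69 member lines off the start had their region upstream, so the upstream side sets none of them apart.

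**Figure D5:**
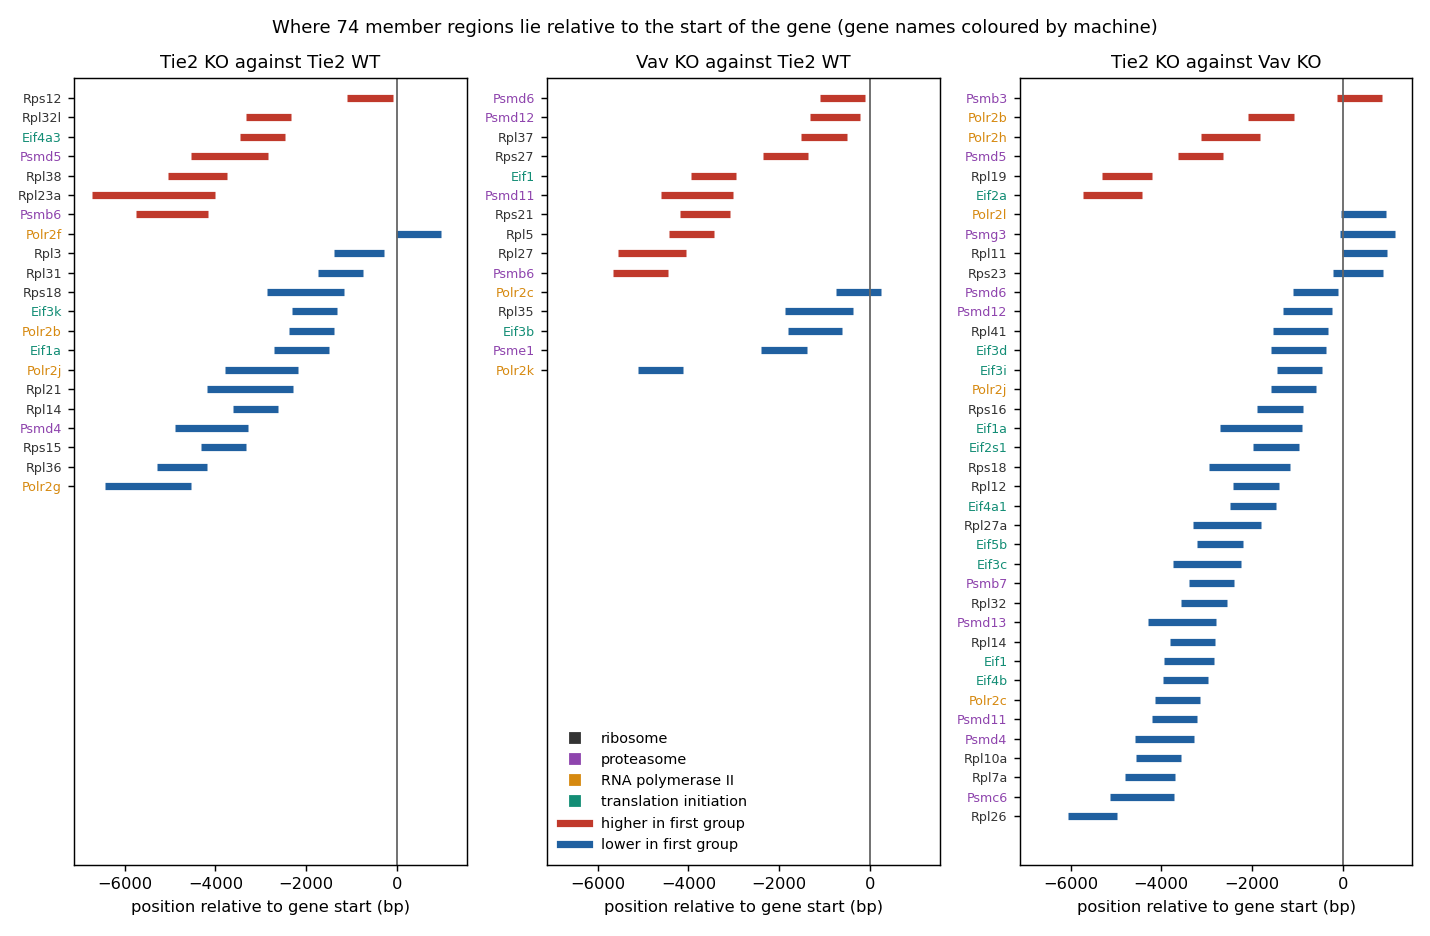
Position of 74 member regions relative to the gene start (bp, negative is upstream), 1 bar per region, red for higher and blue for lower in the first group of the comparison, with gene names coloured by machine. The bars of 7 members cross the line at 0, and all others lie to its left.

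Member regions upstream of their gene often overlapped another gene. Of the 69 member lines with a region off the gene start, 38 (55.1%) had a region that overlapped the body of another protein-coding gene in the reference table, and 29 overlapped no other gene. The same share was not computed for all lines, so it is not read as a trait of the members. Examples are Eif5b in Txndc9, Eif4a1 in Senp3, Polr2c in Coq9, Rps18 in Vps52, Psmd13 in Sirt3 and Rpl12 in Lrsam1. The authors paired 13 of 76 member lines (17.1%) with a region that was also paired with another gene, against 13.3% of all lines. Which gene such a region belongs to was not tested.

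Chromosome 11 held many of the higher members. It carries 23 of the 204 genes (11.3%). Of the 7 members higher in Tie2 KO against Tie2 WT, 4 lie there, namely Rpl23a, Rpl38, Psmb6 and Eif4a3. Of the 10 higher in Vav KO than in Tie2 WT, 5 do, namely Rpl27, Psmb6, Psmd11, Psmd12 and Eif1. None of the 15 and 5 members lower in these comparisons does. Of all higher lines 8.51% and 9.22% were on chromosome 11 in these comparisons, and of all lower lines 8.93% and 9.16%. In Tie2 KO against Vav KO chromosome 11 held 2 of 6 higher and 5 of 33 lower members, beside 9.58% and 9.48% of all lines. The Tie2 WT samples serve both of the first comparisons, and this pattern was noticed in the data and has no test.

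Genes that work beside the 4 machines were counted from lists written for this purpose. Of all protein-coding genes, 11.5% lay near higher and 2.51% near lower regions in Tie2 KO against Tie2 WT. The shares were 5.29% and 2.59% in Vav KO against Tie2 WT, and 11.1% and 6.35% in Tie2 KO against Vav KO. The written lists hold 3 to 31 genes each, and no count was tested against these shares. Of 3 ribosomal protein genes outside the name rule, Fau was lower in Tie2 KO, at -0.92 against Tie2 WT and -1.24 against Vav KO in the authors' deposited table. Ribosome assembly factors numbered 0 higher and 1 lower of 30 in Tie2 KO against Tie2 WT, 0 and 2 in Vav KO against Tie2 WT, and 1 and 5 in Tie2 KO against Vav KO, where Utp20 had the largest fall at -2.5 in the authors' deposited table. Elongation and termination factors numbered 0 and 2, 1 and 1, and 2 and 2 of 11 in the same order. Among them Eef1g, a subunit of elongation factor eEF1, was lower in all 3 comparisons, at -2.56, -3.05 and -1.58 in the authors' deposited table, in regions 3240, 3140 and 4040 bp upstream that overlap only in part. These values do not add along the groups as those of one region would. The value for Tie2 KO against Vav KO computed from the other comparisons would have the opposite sign. Subunits of polymerases I and III numbered 2 and 0, 3 and 0, and 1 and 4 of 19. General transcription factors numbered 1 and 1, 2 and 3, and 3 and 4 of 31, and ubiquitin and proteasome shuttle factors 1 and 0, 0 and 1, and 2 and 0 of 13. Among the last, Ubb, a ubiquitin gene, was at 0.92 in Tie2 KO against Vav KO in the authors' deposited table.

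Markers of cell types were counted in the same lists. Of 24 markers of endothelium, endoderm, mesoderm, macrophages and primitive red cells, 9 lay near higher and 1 near lower regions in Tie2 KO against Tie2 WT, 0 and 2 in Vav KO against Tie2 WT, and 10 and 0 in Tie2 KO against Vav KO. The shares of all protein-coding genes were 11.5% and 2.51%, 5.29% and 2.59%, and 11.1% and 6.35% in the same order, so that the higher counts of 9 and 10 of 24 stand above them. Both of these counts include Tek, the gene of Tie2, with a region over its start at 2.9 and 2.92 in the authors' deposited table. Tek is a marker of endothelium, and so was the 1 marker near a lower region in Tie2 KO against Tie2 WT. No listed marker of primitive red cells lay near a region of any comparison. Of the groups used only Tie2 KO carried Tie2-Cre, and whether transgene reads enter the values of Tek was not tested. Of 12 markers of erythro-myeloid progenitors, 0 were near higher and 1 near lower regions, 1 and 1, and 1 and 3 in the same order. In the authors' deposited table Gata2, a transcription factor of blood progenitors, was at -1.55 in Vav KO against Tie2 WT and 0.92 in Tie2 KO against Vav KO. Csf1r, the receptor of macrophage growth factor, was at 0.92 and -1.33 in the same comparisons in the authors' deposited table. The lists hold no accessibility level, so the cell type could not be checked against its markers. A change in the mix of cells and a change within cells cannot be told apart, and the part of either in the counts above was not tested.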

How the data were processed

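ATAC-seq lists covering 3 comparisons of mouse yolk sac progenitors were used, 6 lists in all, since higher and lower regions are kept apart. Per the submitters' processing notes the build is mm10 and the tools include MACS2 2.1.2, HOMER 4.10, SAMtools 1.3.1, Bowtie2, Picard and FastQC, without their roles. Handling of the Tn5 shift and of duplicates, library scaling and test: not given in the sources used here. By the authors and per the file headers, each region has an adjusted p-value, a log2 fold change and, as other measures, its width and its distance to the gene in bp. The largest adjusted p-value was 0.0479 and the largest distance 4999 bp. The abbreviated groups in the list names were matched to Tie2 WT, Vav KO and Tie2 KO by their letters. Depth per sample is unknown.

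Members, companion lists and rules were chosen with earlier results of these data known. Single values of 2 genes are not reported here, although counts include them. Counts, medians and distances were computed with Python 3.11.15 and pandas 2.3.3, and the name rule was tested on simulated data. No test was made here: calls are the authors'. Every member may be named. The rule for full values took, per machine, comparison and direction, the 4 members that changed most, members in 2 comparisons and those with a region over the gene start. Other members are given by their log2 fold change or as the end of a range. Other members named for their place among neighbours or on chromosome 11 were chosen after their values were seen. Companion list genes were named by size of change, up to 3 per list and comparison. All 62 members matched the RefSeq table (GRCm38.p6) by gene identifier, 57 with a gene start within 100 bp of the lists. One gene of the 204, Rps23rg1, stands in the lists under another symbol and is no member. Regions were called overlapping at 1 bp. Alternatives kept regions with an adjusted p below 0.01, an absolute log2 fold change of at least 1, regions paired with 1 gene, or core subunits.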

Additional observations from a re-analysis of the deposited data

Results flagged for a closer look

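At 10 members a region called between a knockout and Tie2 WT overlapped one called between the knockouts, so that the knockout groups differ there by the authors' own comparison. These groups differ in Cre line too, and Vav WT enters no list, so Cre line and deletion cannot be told apart, and a difference in the effect of the deletion was not tested. In the authors' deposited table the log2 fold change of Tie2 KO against Vav KO was -1.74 at Eif1, -1.46 at Psmd12, -1.33 at Psmd6 and -0.65 at Psmd11, all called higher in Vav KO against Tie2 WT. It was -1.42 at Eif1a, -1.11 at Rpl14, -0.91 at Rps18 and -0.63 at Psmd4 in the authors' deposited table, all called lower in Tie2 KO against Tie2 WT. It was 1.36 at Psmd5, called higher in Tie2 KO against Tie2 WT, in the authors' deposited table, and both regions were also paired with Cutal. At Polr2b it was 0.86 in the authors' deposited table although the gene was called lower in Tie2 KO against Tie2 WT.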

How the results depend on the processing

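The 18 counts, shares and medians of the members (6 each) were recomputed under 4 alternatives. A count was called moved beyond 1.5 times, and a share or median outside its 95% interval. That interval runs over member regions, which are not replicates, and it is wide where regions are few. No median was called moved, although that of the lower regions in Vav KO against Tie2 WT went from 604 to 2751 bp. That change came with an absolute log2 fold change of at least 1, so a value not called moved may still have shifted. With an adjusted p below 0.01, and with core subunits only, 0 of 18 moved. With an absolute log2 fold change of at least 1, 9 of 18 moved. The lower members then numbered 3 in Tie2 KO against Tie2 WT, 2 in Vav KO against Tie2 WT and 16 in Tie2 KO against Vav KO, and the higher ones 3 in Tie2 KO against Tie2 WT and 2 in Tie2 KO against Vav KO. In Tie2 KO against Tie2 WT lower and higher members were thus equal in number, 3 and 3. The share of regions over a gene start was then 0% in the 4 lists that had such members. These shares had to fall to 0%, since no member region over a start exceeded 0.81 in size. A share already at 0% could not move. With regions paired with 1 gene only, 4 of 18 moved: 3 members were higher in Tie2 KO against Tie2 WT and 3 lower in Vav KO against Tie2 WT. Regions over a gene start were then 0% of the lower ones in Tie2 KO against Tie2 WT and 0% of the higher ones in Tie2 KO against Vav KO. These alternatives keep fewer regions by construction. Replicates could not be left out, since the lists hold no value per sample. No paired analysis was possible because the lists hold no value per sample and the groups compared share no replicate number. Depth is unknown, so small changes may be missed.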
